A study of Mus musculus with 2 samples.

Results

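Heat shock chaperones were followed here through 9 genes, Hspa1a, Hspa1b, Dnajb1, Hsph1, Hspb1, Hspa8, Hsp90aa1, Hspd1 and Hspe1, chosen by name out of the 31053 genes counted in single-cell libraries of mouse dorsal skin. One library came from WT mice and 1 from Chrna5-/- mice, which lack the alpha-5 subunit of the nicotinic acetylcholine receptor. Both groups were labelled C57BL/6, and both had received only the vaseline cream base, with tissue taken on day 7. The protocols describe the colony as C57BL/6N in one place and C57BL/6J in another, use females of 6 to 8 weeks, and speak of imiquimod-treated skin in the dissociation step, although both samples were labelled as vaseline controls. The sources used here do not state how many mice went into each library. Skin was minced, digested with collagenase at body temperature and sorted for live cells by exclusion of SytoxBlue, and both libraries share these steps. With 1 library for each genotype there was no replicate, so no difference between genotypes could be tested. Every interval below is a 95% interval of counting error alone.

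All 9 genes were found in both count tables and passed the minimum of 20 unique molecular identifiers (UMIs, each marking 1 captured RNA molecule) in every class compared. After filtering, 9666 WT cells and 8841 Chrna5-/- cells were kept, with a median of 12538 and 12310 UMIs per cell. Chrna5 itself gave 11 UMIs in WT cells and 2 in Chrna5-/- cells, too few to check the labels firmly. The libraries shared 34 cell barcodes. Cells were clustered without the chaperones, and clusters were pooled into classes by marker genes. Of these, 8 separate classes had at least 100 cells in both libraries, namely basal-like, suprabasal-like, outer root sheath-like and upper hair follicle-like keratinocytes, dermal papilla-like cells, fibroblast-like cells, T and innate lymphoid-like cells and melanocyte-like cells. Levels are counts per 1000000 (CPM), the UMIs of a gene summed over the cells of a class and scaled to the UMIs of all genes there, and a ratio is the Chrna5-/- CPM divided by the WT CPM. A gene is called higher or lower in the Chrna5-/- library where its ratio was at least 1.5 either way and its interval left out 1.

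Heat shock proteins are molecular chaperones that hold unfolded proteins and help them fold or be degraded. Stress lets the transcription factor HSF1 assemble into trimers that bind heat shock elements, inverted repeats of a short motif in the promoters of the inducible genes. In the main folding cycle a J-domain protein hands a client to an Hsp70, an exchange factor of the Hsp110 kind releases it, and Hsp90 finishes some clients. Small heat shock proteins hold clients without using ATP, and a separate Hsp60 and Hsp10 chamber works inside mitochondria. Immediate early genes and inducible Hsp70 are also known to be switched on in skin cells by warm enzymatic dissociation.

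The promoters are shown first because Hspa1a and Hspa1b have near-identical ones and Hspd1 and Hspe1 share a stretch. Sequences are from RefSeq on GRCm38.p6, 5′ to 3′ on the strand of the gene, with heat shock element pairs in capitals. A pair was searched as GAANNTTC or TTCNNGAA on both strands in the 250 bases before each listed start. Either pair stood in 12.8% of 32851 promoters in that table, and a triple, a pair with one more unit in step, in 0.466%. Of the 9 members 7 had an entry. Hspa1a and Hspa1b, neighbours whose starts lie 12918 bases apart on the minus strand of chromosome 17, are shown whole because they differ at only 3 of 250 positions.
Hspa1a, chr17:34972157-34972406: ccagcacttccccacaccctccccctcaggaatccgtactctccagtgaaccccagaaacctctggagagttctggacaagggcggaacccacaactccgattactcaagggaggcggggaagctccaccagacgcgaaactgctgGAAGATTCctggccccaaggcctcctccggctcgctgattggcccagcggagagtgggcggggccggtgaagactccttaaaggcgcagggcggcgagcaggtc
Hspa1b, chr17:34959239-34959488: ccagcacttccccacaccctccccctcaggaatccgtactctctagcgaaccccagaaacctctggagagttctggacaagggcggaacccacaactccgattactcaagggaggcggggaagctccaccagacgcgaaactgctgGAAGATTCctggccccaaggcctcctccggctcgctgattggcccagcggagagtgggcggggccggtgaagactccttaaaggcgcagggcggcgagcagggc
Counted from 1 at the 5′ end, the differences from Hspa1a to Hspa1b were C44T, T47C and T249G, none inside the element. The element began 104 bases before the start in both.

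Hspd1 and Hspe1 lie head to head on opposite strands of chromosome 1, and 1 site serves both listed promoters. It is shown with a few bases on either side, once on each strand, over chr1:55088053-55088082, which the annotation also places in an exon of Hspd1.
Hspe1, plus strand: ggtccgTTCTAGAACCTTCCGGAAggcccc
Hspd1, minus strand: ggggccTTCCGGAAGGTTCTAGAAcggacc
These 18 capitals hold 3 overlapping pairs and 2 overlapping triples, and began 89 bases before the Hspe1 start and 144 bases before the second Hspd1 start. The first Hspd1 start had no pair in its window. Hspb1 had 2 separate pairs, GAAGTTTC at 117 and GAACCTTC at 97 bases before its start, within chr5:135887791-135887840 on the plus strand. Hsph1 had 1 pair, TTCTCGAA, at chr5:149636351-149636380 on the minus strand, a stretch of which 26 of 30 bases lie in an annotated exon of Hsph1. Neither listed Dnajb1 start had a pair in its window. These matches describe letters in a window and are not measured binding.

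The gene models bear on what the counts can separate. Hspa1a and Hspa1b are single-exon genes (GRCm38, GENCODE vM21) of 2967 and 2803 bases. Of the 90-base stretches of the Hspa1a transcript 49.3% also occur in Hspa1b, but 0 of the 411 stretches in its last 500 bases do, the end that 3′ counting would read. Hspa1a is overlapped by Gm20481 on the opposite strand, and the first bases of Hspd1 and Hspe1 overlap each other. The sources used here do not state whether counting used strand.

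Among the 9 genes Hspa1a had the widest span of levels over cell classes in the WT library, and Hspb1 in the Chrna5-/- library. In WT cells Hspa1a reached 2658 CPM in dermal papilla-like cells and 58.5 CPM in T and innate lymphoid-like cells, a 45.4-fold span over the 8 classes. In the Chrna5-/- library the same 2 classes stood at the ends with 1722 and 73.0 CPM, a 23.6-fold span. Among these 8 classes Hspa1a was highest in dermal papilla-like cells in both libraries, then in fibroblast-like and melanocyte-like cells, whose order differed between libraries. Outer root sheath-like cells came next, then upper hair follicle-like, suprabasal-like, basal-like and lymphoid cells, and no neighbouring intervals met. Classes with too few cells to be compared are not in this order. Of these, hair matrix-like follicle keratinocytes had 2342 CPM in the WT library and 1946 CPM in the Chrna5-/- library. The latter is above the dermal papilla-like level there. Langerhans cell-like cells had 1563 and 1514 CPM. Hsph1, the Hsp110 exchange factor, spanned 18.2-fold in the WT library, from 31.8 CPM in basal-like to 577.4 CPM in dermal papilla-like cells. Hspb1 spanned 11.9-fold in the WT library and 26.7-fold in the Chrna5-/- library, where it ran from 45.5 CPM in lymphoid to 1214 CPM in outer root sheath-like cells. Hspa1b spanned 13.7-fold and 6.87-fold. For Hspe1, the lid of the mitochondrial chamber, the WT span was 3.50-fold, from 268.6 CPM in T and innate lymphoid-like to 940.7 CPM in melanocyte-like cells.

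**Figure D1:**
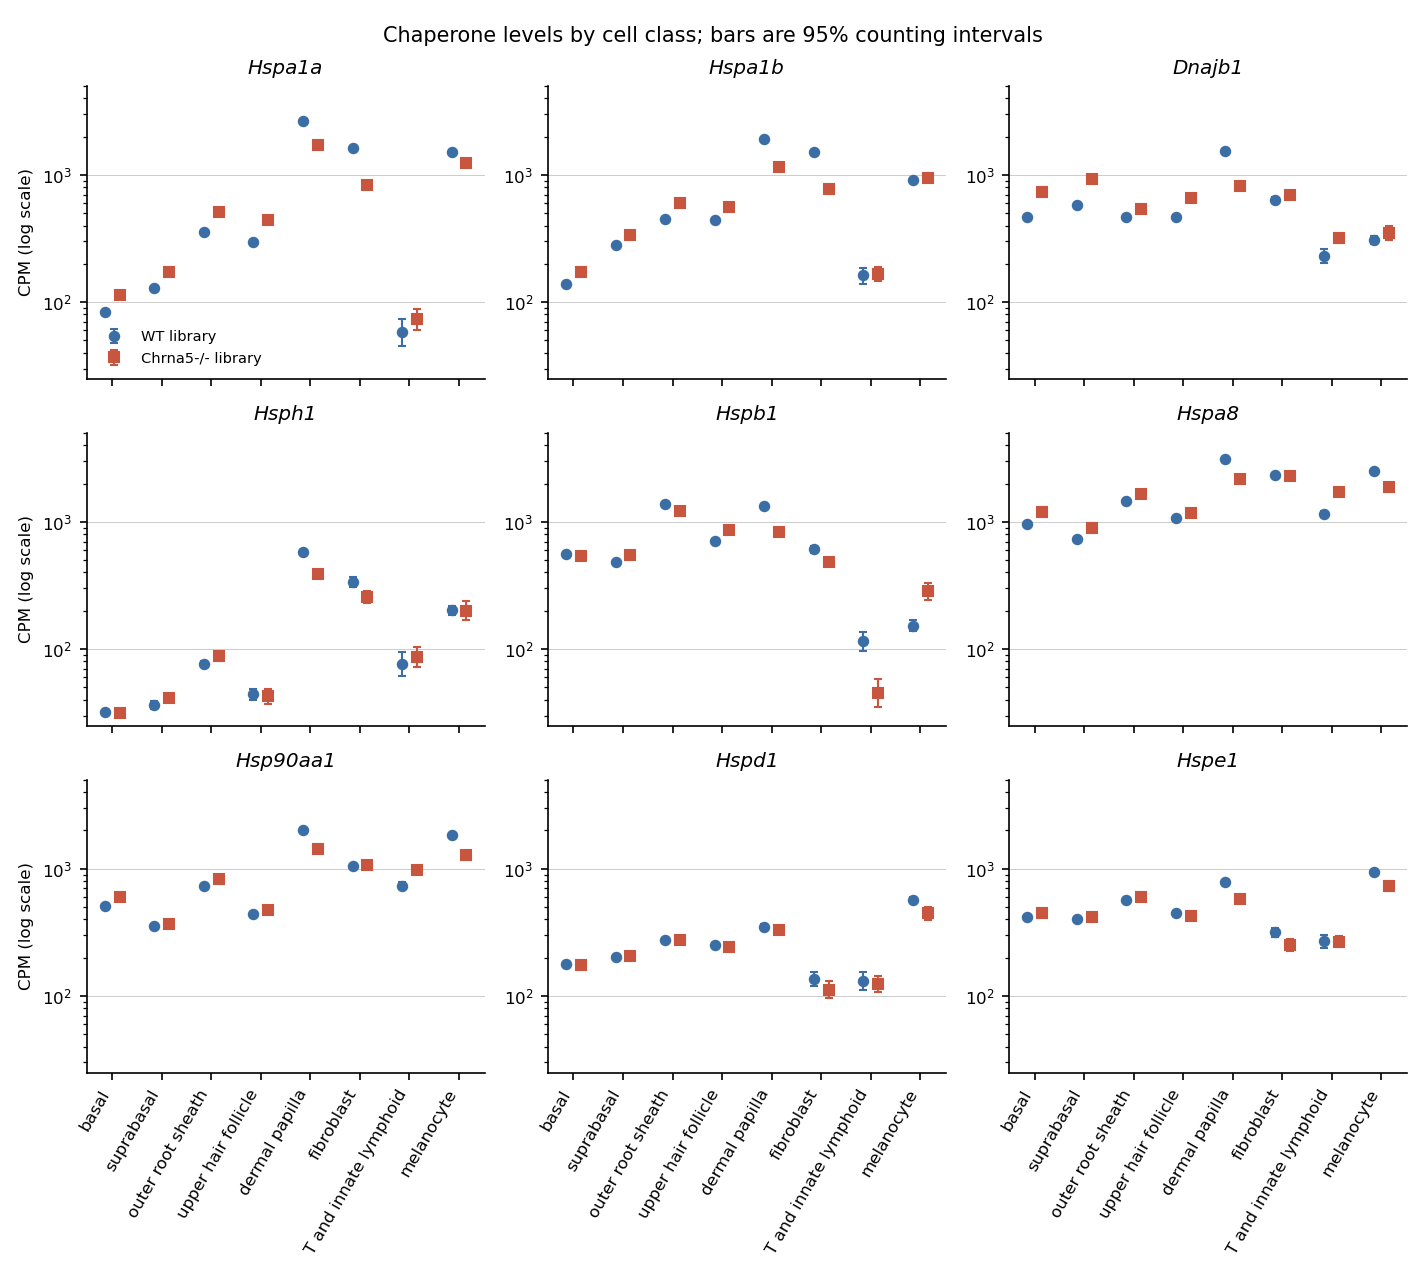
Level of each of the 9 genes (CPM, log axis) in 8 cell classes, with the WT library as blue circles and the Chrna5-/- library as red squares; bars are 95% counting intervals, often smaller than the symbol. Hspa1a runs from 58.5 CPM in T and innate lymphoid-like to 2658 CPM in dermal papilla-like cells of the WT library. In that library Hspe1 has the smallest span, 3.50-fold.

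Dermal papilla-like cells, the mesenchymal cluster at the base of the hair follicle, gave lower levels of all 9 genes in the Chrna5-/- library than in the WT library. The 9 genes together made up 1.43% of their UMIs in WT and 0.943% in Chrna5-/- skin, from 560 and 498 cells. Of the 9, 4 passed the rule as lower. Of the 11335 genes measured in that class 7.57% were called, 3.57% higher and 4% lower. Hspa1a, an inducible Hsp70, had 2658 CPM in WT and 1722 CPM in Chrna5-/- cells, a ratio of 0.648 (0.625 to 0.671). Hspa1b, its near copy, had 1902 and 1145 CPM, a ratio of 0.602. Dnajb1, the J-domain partner of inducible Hsp70, had 1530 and 822.8 CPM, a ratio of 0.538 (0.511 to 0.565). Hspb1, a small heat shock protein, had 1336 and 835.2 CPM, a ratio of 0.625.

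The other 5 genes did not reach the rule in dermal papilla-like cells. Hsph1 stood at 577.4 and 388.6 CPM and Hspa8, the constitutive Hsp70, at 3132 and 2182 CPM. Their ratios were 0.673 and 0.697. Hsph1 lay just short of the threshold and was called lower under 5 of 11 alternatives, among them TMM scaling at 0.652 and thinning at 0.619. Hsp90aa1, the inducible cytosolic Hsp90, had a ratio of 0.702 and Hspe1 one of 0.739. Hspd1, the mitochondrial Hsp60, was nearest to equal, with 346.3 and 332.9 CPM and a ratio of 0.961 (0.880 to 1.05). Hspd1 and Hspe1, which share the element printed above, thus had intervals that did not meet in these cells.

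The 2 dermal papilla-like clusters did not contribute alike. Cluster 8, led by Ndnf and Wif1, had 3130 and 1996 CPM of Hspa1a, a ratio of 0.638. Cluster 13, led by Serpine2, F5 and Vcan, had 1735 and 1489 CPM, a ratio of 0.858. The WT library held 389 cells of cluster 8 and 171 of cluster 13, and the Chrna5-/- library 259 and 239. With both clusters weighted alike the Hspa1a ratio was 0.716 and the Hspa1b ratio 0.680, so neither was still called, and 2 of the 4 calls were lost. The Hspa1a ratio also passed under the threshold as a mean over cells, at 0.753, after thinning to 1000 UMIs per cell, at 0.731, and with cells gated by markers, at 0.677. Median depth in this class was 6744 and 5347.5 UMIs per cell, median mitochondrial content 2.63% and 1.75%, and its 12 own markers summed to 8736 and 7355 CPM. The part of these in the result was not tested.

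Fibroblast-like cells gave lower Hspa1a and Hspa1b, and no other member was called. Of the 9 members 2 were called lower, where 11.7% of measured genes were called, 5.4% higher and 6.33% lower. Hspa1a had 1636 CPM in the WT library and 825.9 CPM in the Chrna5-/- library, a ratio of 0.505 (0.472 to 0.540). Hspa1b had 1521 and 772.3 CPM, a ratio of 0.508. Dnajb1 went the other way, with 636.8 and 697.8 CPM and a ratio of 1.096, and Hspa8 and Hsp90aa1 had ratios of 0.971 and 1.02. Hsph1, with 336.8 and 256.8 CPM, had a ratio of 0.762 (0.669 to 0.868), and Hspb1, Hspd1 and Hspe1 had 0.802, 0.824 and 0.796. The Dnajb1 interval (1.01 to 1.19) and that of Dnajb1 in dermal papilla-like cells did not meet.

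The fibroblast-like pool held different clusters in the 2 libraries. Cluster 27, led by Lum and Dcn, had 66 WT cells and 1 Chrna5-/- cell, and cluster 25, led by Col1a1, had 72 and 24. Within cluster 21, led by Myoc, with 72 and 130 cells, Hspa1a was lower at 1111 and 537.9 CPM. Cluster 20, led by Ptx3 and Smpd3, with 85 and 133 cells, had 1173 and 887.2 CPM, a ratio of 0.756. With clusters weighted alike the Hspa1a ratio of the pool was 0.752 and no member was called. That weighting left out cluster 27, which had under 20 cells in the Chrna5-/- library. Without the unevenly split clusters Hsph1 was called lower at 0.664, Hspb1 turned to 1.57 and was called higher, and Hspa1b was no longer called at 0.690. Median mitochondrial content also differed, at 2.34% of UMIs in WT and 1.07% in Chrna5-/- fibroblast-like cells, and its part in the result was not tested. The 12 fibroblast markers summed to 39860 and 39760 CPM, a ratio of 0.998. The 12 dermal papilla markers, all with UMIs in WT and 10 in Chrna5-/- cells, summed to 609.4 and 242.4 CPM in this class, and the 13 lymphoid markers to 442.2 and 211.7 CPM. Their part in the result was not tested either.

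**Figure D2:**
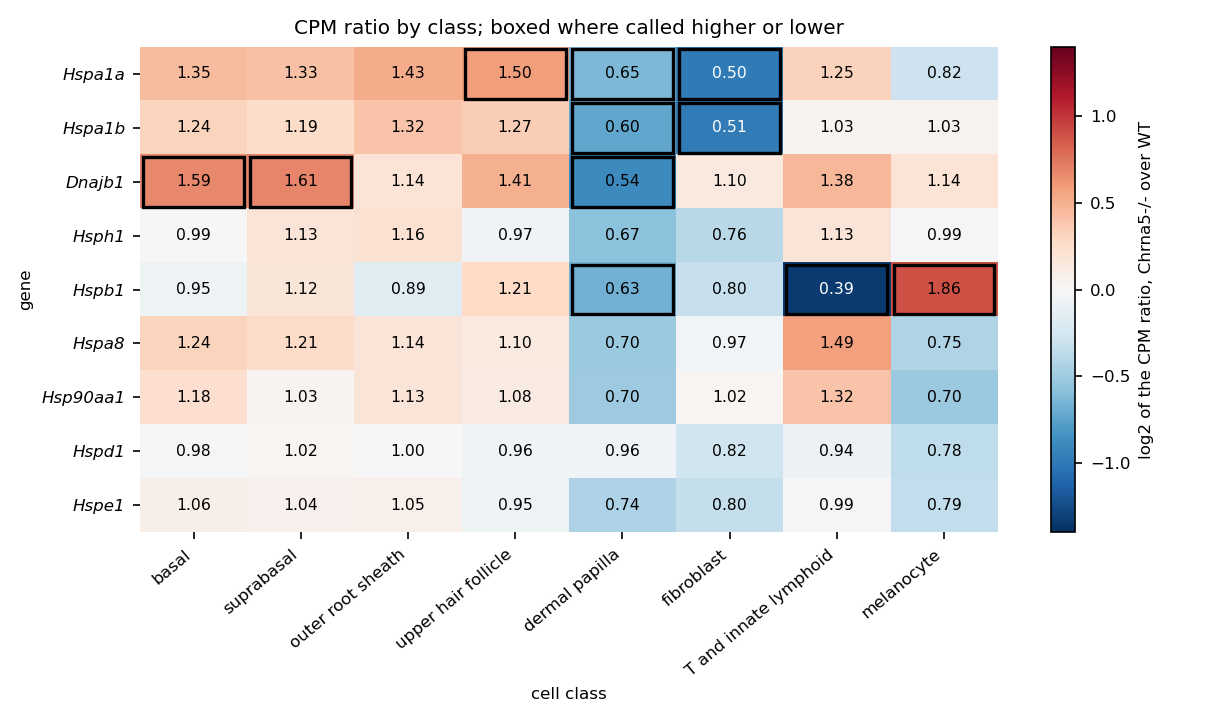
Ratio of Chrna5-/- to WT CPM for 9 genes (rows) in 8 classes (columns), printed in each cell and coloured by its log2; black boxes mark genes called higher or lower. The boxes for Hspa1a and Hspa1b in dermal papilla and fibroblast columns are blue, and those for Dnajb1 in basal and suprabasal columns are red.

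In keratinocytes Dnajb1 or Hspa1a was called higher in 3 of 4 pools, and no member lower. Dnajb1 was the one member called in basal-like cells, with 462.6 CPM in the WT library and 737.7 CPM in the Chrna5-/- library, a ratio of 1.59 (1.57 to 1.62), where 7.62% of measured genes were called, 3.5% higher and 4.13% lower. It was likewise the one member called in suprabasal-like cells, with 580.1 and 933.9 CPM, a ratio of 1.61, where 8.72% were called, 3.55% higher and 5.16% lower. Hspa1a was the one member called in upper hair follicle-like cells, with 294.5 and 443.0 CPM, a ratio of 1.504 (1.42 to 1.59), where 6.63% were called, 2.55% higher and 4.08% lower. That ratio lies at the threshold and was 1.45 with cells thinned to 1000 UMIs. In outer root sheath-like cells no member was called, where 7% of measured genes were called, 2.53% higher and 4.47% lower.

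Counting intervals of Hspa1a, Hspa1b, Dnajb1 and Hspa8 lay above 1 in all 4 of these keratinocyte pools, mostly with ratios under the threshold. For Hspa1a the basal-like pool had 83.8 and 113.6 CPM, a ratio of 1.35, and the suprabasal-like pool 130.1 and 172.9 CPM, a ratio of 1.33. The outer root sheath-like pool had 357.5 and 511.3 CPM, a ratio of 1.43. Hspa1b gave ratios of 1.19 to 1.32 and Hspa8 ratios of 1.101 to 1.24 over the 4 pools. Hsp90aa1 gave 1.03 to 1.18, and Hsph1 0.965 to 1.16, with ratios under 1 in the basal-like and upper hair follicle-like pools. Hspb1 was split, at 0.949 (0.935 to 0.964) in basal-like and 0.887 (0.869 to 0.905) in outer root sheath-like cells, against 1.125 (1.097 to 1.155) in suprabasal-like and 1.21 (1.16 to 1.26) in upper hair follicle-like cells. Hspd1 stood between 0.962 and 1.02 and Hspe1 between 0.953 and 1.06. The mitochondrial pair was thus within a few percent of equal where the cytosolic Hsp70 genes were not.

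Within the basal-like pool the ratios of Dnajb1 and Hspa1a both varied from cluster to cluster, and both were lowest in cluster 15. Basal-like cluster 0, led by Fbxo32 and Pyy, had 726.6 and 1214 CPM of Dnajb1, a ratio of 1.67, beside an Hspa1a ratio of 1.24. Basal-like cluster 1, led by Procr and Dlk2, had a Dnajb1 ratio of 1.22 and an Hspa1a ratio of 1.24. Basal-like cluster 2, led by Ube2c and Top2a, which act in mitosis, had 1.605 for Dnajb1 and 1.47 for Hspa1a. Basal-like cluster 15, another mitotic cluster, had 1.09 for Dnajb1 and 0.676 for Hspa1a. Weighting these clusters alike put the Dnajb1 ratio of the basal-like pool at 1.46, under the threshold.

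The outer root sheath-like pool, the outer layer of the follicle, split most. Clusters 5 and 12, both led by Vsnl1, had Hspa1a ratios of 1.85 and 1.72. Cluster 17, led by Tagln and Gjb2, went from 435.4 to 913.3 CPM, a ratio of 2.10. Cluster 11, led by Shisa2, Sfrp1 and Nppc, ran against them, from 816.0 CPM in 438 WT cells to 528.8 CPM in 120 Chrna5-/- cells, a ratio of 0.648. Lgr5 and Lhx2 were among the leading genes of clusters 11 and 17 alike. Without cluster 11, whose share of the pool differed by more than 2 times between libraries, the Hspa1a ratio of the pool was 1.85 and the Hspa1b ratio 1.68, and both were called higher. Hspb1 in cluster 11 had 4185 and 2843 CPM, against 1801 and 2591 CPM in cluster 17.

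**Figure D3:**
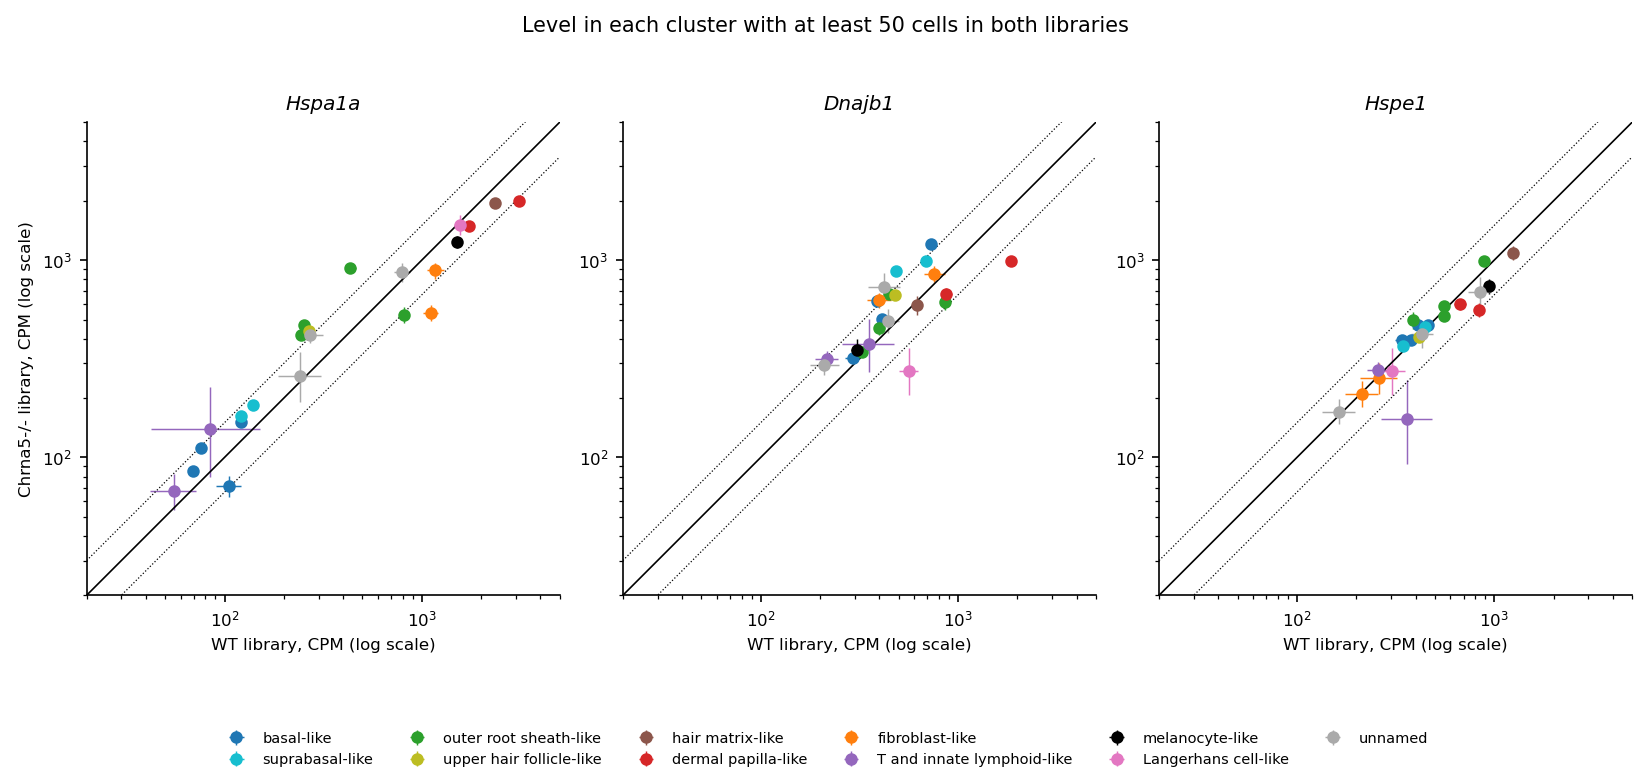
Level of Hspa1a, Dnajb1 and Hspe1 in each cluster with at least 50 cells in both libraries, WT on the horizontal and Chrna5-/- on the vertical axis (CPM, log axes); the solid line is equality, dotted lines are ratios of 1.5, bars are 95% counting intervals and colours give the class. For Hspa1a the outer root sheath-like clusters 5, 12 and 17 lie above the upper dotted line and cluster 11 below the lower one, whereas Hspe1 lies along the line of equality in most clusters.

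Over the 23 clusters with at least 50 cells in both libraries, the Hspa1a ratio was above 1 in 14, with 5 called higher and 3 called lower. The Dnajb1 ratio was above 1 in 18, with 6 called higher and 2 called lower. Hspd1 had no call in any of these clusters, and its ratios ran from 0.665 to 1.44. Hspe1 had 2 clusters called lower, dermal papilla-like cluster 8 at 0.665 and T and innate lymphoid-like cluster 19 at 0.433, the latter on 47 and 18 UMIs. The share of all measured genes called in each cluster is not given here, so these counts of calls stand without a background. Cluster 10, led by Tnip3, Ch25h and Ccl20, stayed outside the classes and had too few Chrna5-/- cells for this count, with 575 WT and 48 Chrna5-/- cells.

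For Hspa1a the pooled keratinocyte-like class differed from its 4 large pools. In all keratinocyte-like cells together Hspa1a had 195.6 CPM (WT) and 193.7 CPM (Chrna5-/-), a ratio of 0.991 (0.972 to 1.01), although the 4 large pools each had a ratio of 1.33 or more. The class named hair matrix-like is cluster 22, led by Krt28, Krt25 and Krt71, keratins known from the inner root sheath, and its name rests on a list of hair matrix and inner root sheath markers together. It had 2342 and 1946 CPM of Hspa1a, a ratio of 0.831 (0.776 to 0.889), and so ran against the 4 large pools. Its 9 members summed gave a ratio of 0.841 (0.820 to 0.863). Its cells gave 18.5% of the keratinocyte-like Hspa1a UMIs in the WT library, from 133 cells, and 5.25% in the Chrna5-/- library, from 53 cells. Outer root sheath-like cells made up 17.9% of the keratinocyte-like UMIs of all genes in the WT library and 10.8% in the Chrna5-/- library. With the Chrna5-/- levels weighted by the WT shares of the 5 pools, Hspa1a came to 253.9 CPM, a ratio of 1.30. The same weighting gave Dnajb1 a ratio of 1.49 in place of 1.54 and Hspe1 one of 1.04 in place of 0.999.

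**Figure D4:**
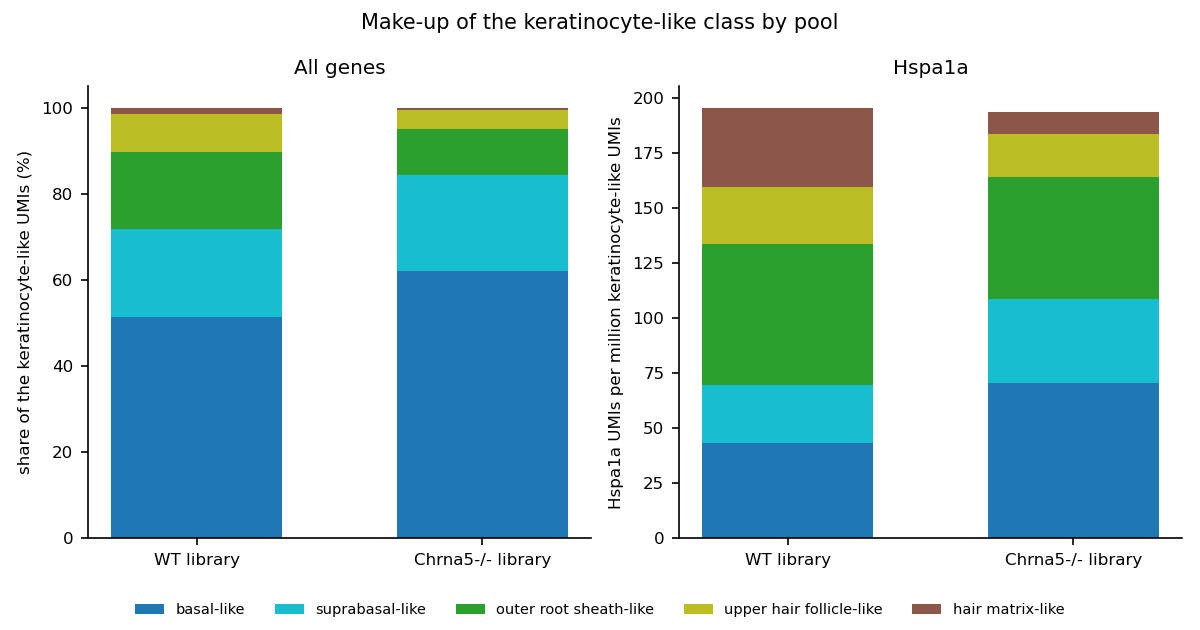
Left, share of the keratinocyte-like UMIs of all genes that each of 5 pools holds (%); right, Hspa1a UMIs from each pool in CPM of all keratinocyte-like UMIs, with the WT and Chrna5-/- library side by side. The right-hand bars reach 195.6 and 193.7, but the hair matrix-like segment shrinks and the basal-like segment grows.

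In the keratinocyte-like class as a whole, Dnajb1 was the one member called, at 490.5 and 755.0 CPM, where 10.6% of measured genes were called, 2.57% higher and 8.04% lower. Over all kept cells no member was called, where 11.8% of measured genes were called, 2.7% higher and 9.05% lower. There, Hspa1a had 318.0 and 248.3 CPM, a ratio of 0.781, and Dnajb1 505.5 and 739.8 CPM, a ratio of 1.46. Scaling by TMM in place of the total put that Dnajb1 ratio at 1.51, past the threshold, whereas weighting clusters alike put it at 1.05. The 9 members together held 0.445% of all WT UMIs and 0.449% of all Chrna5-/- UMIs.

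T and innate lymphoid-like cells had the lowest Hspa1a of the 8 classes in both libraries. Hspa8 had 1149 CPM in the WT library and 1707 CPM in the Chrna5-/- library, a ratio of 1.49 (1.39 to 1.59), just under the rule. That ratio was 1.55 with TMM scaling and 1.13 with cells gated by markers. Hsp90aa1 had 736.1 and 973.3 CPM, a ratio of 1.32. Hspa1a rested on 68 and 106 UMIs, with a ratio of 1.247 whose interval held 1. Without removal of doublets the clusters of this class changed and the Hspa1a ratio was 0.613.

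One member was called in the lymphoid class, Hspb1, as lower, where 7.81% of measured genes were called, 2.74% higher and 5.07% lower. It had 134 UMIs in 431 WT cells and 66 in 485 Chrna5-/- cells, or 115.4 and 45.5 CPM. After thinning to 1000 UMIs per cell the share of cells with an Hspb1 UMI was 5.45% (3.36 to 8.29) in WT and 3.68% (2.07 to 5.99) in Chrna5-/- skin, intervals that meet. In WT basal-like cells that share was 36.2%. The 12 keratinocyte markers, all with UMIs in both libraries, summed to 2877 and 1864 CPM in the lymphoid class, so they were lower with Hspb1, and their part in it was not tested. Within cluster 7, the Cd3g and Trdc cluster, the ratio was 0.307, and with clusters 7 and 19 weighted alike it was 0.906.

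Melanocyte-like cells, 180 and 100 in number, had 1 member called higher, again Hspb1, where 18.5% of measured genes were called, 10% higher and 8.44% lower. It had 152.9 CPM in the WT library and 284.1 CPM in the Chrna5-/- library, a ratio of 1.86 (1.56 to 2.21). The keratinocyte markers summed to 3340 and 11810 CPM in this class, all 12 with UMIs in both libraries, and the 9 melanocyte markers to 35920 and 27400 CPM. Their part in the Hspb1 result was not tested. Median depth was 6636.5 and 3008.5 UMIs per cell. With cells thinned to 1000 UMIs the Hspb1 ratio turned to 0.583. Hspa8 and Hsp90aa1 had ratios of 0.749 and 0.7 there, and Hspa1b one of 1.03.

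The spread over single cells differed between these classes. In dermal papilla-like cells thinned to 1000 UMIs, 69.5% (65.4 to 73.4) of 535 WT cells and 51.7% (47.1 to 56.2) of 480 Chrna5-/- cells had an Hspa1a UMI. Unthinned, the shares were 82.9% and 67.1%. The median cell held 1723 CPM in the WT library and 776.7 CPM in the Chrna5-/- library, and the 90th percentiles were 6476 and 5686 CPM. The middle of the distribution thus moved further than its top.

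In basal-like cells the difference was seen at the top of the distribution. Thinned, 8.10% (7.19 to 9.09) of 3283 WT cells and 9.64% (8.74 to 10.6) of 4004 Chrna5-/- cells had an Hspa1a UMI, intervals that meet. Unthinned, the shares were 54.2% and 54.5%. The median cell held 41.5 and 43.2 CPM, whereas the 90th percentiles were 209.5 and 305.1 CPM. With so many cells without an Hspa1a UMI, the median lies near the step of detection and can hardly show a shift. Cells with at least 3 Hspa1a UMIs after thinning made up 0.396% and 0.949%. For Dnajb1 the whole distribution was higher, with medians of 317.7 and 462.6 CPM, 90th percentiles of 1092 and 2046 CPM, and thinned shares of 34.4% and 44.6%. None of these genes is known to be absent from a skin cell type, so the lowest class serves as the background, and thinned shares of Hspa1a in T and innate lymphoid-like cells were 4.09% and 5.39% at median depths of 2627 and 2836 UMIs per cell.

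**Figure D5:**
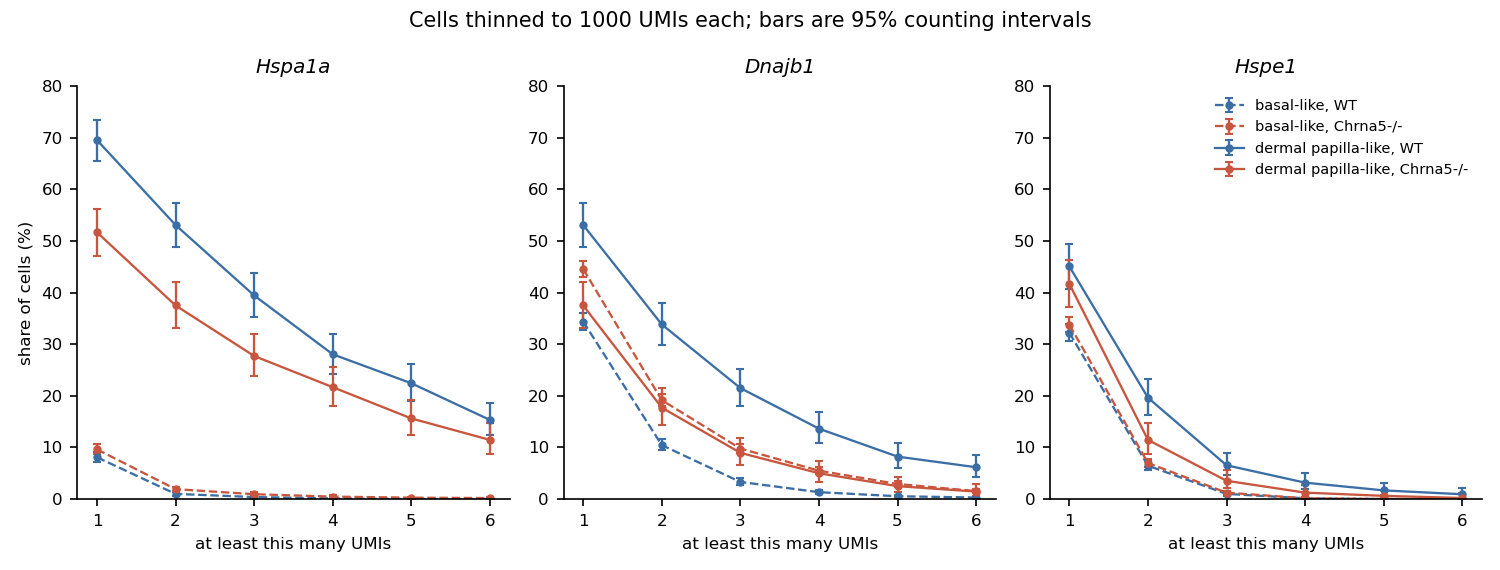
Share of cells (%) with at least 1 to 6 UMIs of Hspa1a, Dnajb1 or Hspe1 after thinning every cell to 1000 UMIs, for basal-like (dashed) and dermal papilla-like cells (solid) of the WT (blue) and Chrna5-/- library (red); bars are 95% counting intervals. The solid Hspa1a curve starts at 69.5% in the WT and 51.7% in the Chrna5-/- library, while the dashed Dnajb1 curve is higher in the Chrna5-/- library, at 44.6% against 34.4%.

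Members were set side by side over 50 sums, each of 1 cluster in 1 library, on log2(CPM + 1). Hspa1a and Hspa1b, the pair with near-identical promoters, had a Pearson r of 0.953. Hspd1 and Hspe1, the pair with the shared element, had 0.887, and Hspa8 and Hsp90aa1 had 0.888. Hspa1a correlated with Hsph1 at 0.810 but with Hspe1 at 0.313 and with its own J-domain partner Dnajb1 at 0.356. These sums share libraries and depth and are a description. Across single cells of 1 class and 1 library the Hspa1a and Hspa1b correlation ran from 0.198 in WT lymphoid-like to 0.778 in Chrna5-/- outer root sheath-like cells. For Hspa1a and Dnajb1 in WT cells it was 0.465 in dermal papilla-like and 0.104 in basal-like cells. Only the deeper cells were used for keratinocyte pools, but all cells for dermal papilla-like and lymphoid-like cells. In the WT library Hspa1a also had 83.85 CPM in basal-like against 2658 CPM in dermal papilla-like cells. These correlations therefore cannot be compared between classes.

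Outside the members, the 3 of 9804 genes whose levels over the 50 sums were most like those of Hspa1a were Camkk2 (r = 0.8005), a kinase that activates AMPK, Sulf2 (0.784), an extracellular heparan sulfate sulfatase, and Rhob (0.782), a small GTPase. Their CPM ratios over all kept cells were 0.667, 0.512 and 0.808, beside 0.781 for Hspa1a. For Hspe1 they were Cdk4 (0.878), a cell cycle kinase, Prmt1 (0.878), an arginine methyltransferase, and Ndufab1 (0.863), the mitochondrial acyl carrier protein. Those had ratios of 1.00, 0.897 and 1.02, beside 0.971 for Hspe1.

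Over all kept cells the wider chaperone system had few calls. Of 20 other inducible HSF1 targets and cochaperones, all measured there, 1 was lower and 19 were neither, with a median log2 ratio of 0.00 beside -0.06 over all measured genes. The lower one was Cryab, a small heat shock protein, at 5.80 and 3.81 CPM, followed by Hspb8 at 64.9 and 46.6 CPM. At the other end stood Dnaja1, another J-domain partner of Hsp70, at 307.1 and 352.6 CPM and Dedd2 at 28.4 and 36.9 CPM. Outside the immediate early genes no list had a lower call in dermal papilla-like cells, and Fkbp5, Dnajc2 (35.6 and 54.1 CPM) and Grpel2 (15.7 and 24.8 CPM) were called higher. There, 0 of 19 measured genes of the HSF1 target list were called lower and 0 higher, and their median log2 ratio was 0.03, against -0.57 over the 9 members and 0.04 over all measured genes.

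The heat shock factors themselves were low, and of 6 factors and regulators 1 was lower and none higher. Hsf1 had 23.2 and 19.6 CPM over all kept cells and Hsf2 21.7 and 21.8 CPM, ratios of 0.848 and 1.00. Hsf4 was called lower on 67 and 32 UMIs, and Hsf5 had 13 and 15 UMIs. Of 11 other genes of the Hsp70 and Hsp110 family, Hspa12a was higher, at 3.04 and 6.50 CPM, Hspa2 had a ratio of 1.47, and Hspa1l and Hspa12b were lower, Hspa1l on 22 and 7 UMIs. Hspa2 and Hspa12a were both called higher in basal-like and in suprabasal-like cells.

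None of the 15 other genes of the Hsp90 group was called over all kept cells. Hsp90ab1, the constitutive cytosolic Hsp90, had 2529 and 2827 CPM and Fkbp5 a ratio of 1.33, while Fkbp4 and Ahsa1 had ratios of 0.904 and 0.921. Fkbp5, a glucocorticoid-responsive cochaperone, was called higher in dermal papilla-like cells at 6.45 and 17.8 CPM, on 23 and 46 UMIs. None of 21 J-domain genes was called, with Dnajb5 and Dnajb2 lowest at 0.776 and 0.840 and Dnajb9 highest at 1.18. None of 10 exchange factors was called, from Hspbp1 at 0.794 and Grpel2 at 0.858 to Sil1 at 1.03 and Bag1 at 1.08.

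Of the 5 small heat shock proteins measured over all kept cells, Hspb2 was lower, on 97 and 45 UMIs, together with Cryab, while Hspb6 and Hspb11 had ratios of 1.12 and 1.29. None of 13 measured genes of the TRiC chaperonin and prefoldin was called, and their ratios ran from 0.880 for Pfdn4 and 0.9198 for Cct7 to 1.103 for Cct4 and 1.11 for Pfdn5. None of 13 mitochondrial chaperone and protease genes was called, with Clpp at 0.833 and Hspa9, the mitochondrial Hsp70, at 0.898 lowest and Hscb at 1.21 and Clpx at 1.28 highest. None of 18 genes of the endoplasmic reticulum response was called over all kept cells, with Sdf2l1 and Ddit3 lowest at 0.710 and 0.716 and Dnajb9 and Herpud1 highest at 1.18 and 1.43.

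Melanocyte-like cells had more calls in these lists than the whole. More was called over all measured genes too, 11.8% in all kept cells against 18.5% in melanocyte-like cells. There, 8 of the 18 endoplasmic reticulum genes were lower and none higher, where 8.44% of measured genes were lower, with a median log2 ratio of -0.53 beside -0.03 over all measured genes. Calr, a lectin chaperone of the endoplasmic reticulum, had 967.6 and 468.0 CPM, and Manf, a secreted stress response protein, 387.3 and 189.9 CPM. Of 20 J-domain genes 3 were lower, of 20 HSF1 targets 3 were lower and 1 higher, and of 13 TRiC and prefoldin genes 2 were lower. These small counts lie near the 18.5% of all measured genes and are not a result about those lists. Hsf1 was higher, with a ratio of 2.06 on 54 and 26 UMIs. The keratinocyte markers printed above were higher and the melanocyte markers lower in the same cells, and their part in these counts was not tested. In the other 7 separate classes no chaperone list had more than 2 calls.

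Immediate early genes, known to respond within minutes and to dissociation, were counted in the same classes as the chaperones. Of 29 such genes, 5 were higher and 1 lower in basal-like cells, and 8 were higher and 1 lower in suprabasal-like cells, with median log2 ratios of 0.30 and 0.32 beside -0.01 over all measured genes in each. Fos, an AP-1 subunit, had 1941 and 3110 CPM in basal-like cells, and Myc 77.5 and 138.6 CPM. In dermal papilla-like cells 0 were higher and 4 lower, namely Egr1 at 4750 and 2446 CPM, Egr2, Egr3 and Mcl1. Outer root sheath-like cells, where Hspa1a had a ratio of 1.43, had 2 higher and 1 lower, with 13 above and 16 below 1 and a median of -0.11. Upper hair follicle-like cells had 2 higher and 1 lower, and T and innate lymphoid-like cells 3 higher and 0 lower. Melanocyte-like cells, where 6 of 9 members had ratios under 1, had 8 higher and 1 lower, with a median of 0.28. In fibroblast-like cells 1 was higher and 6 lower, among them Dusp1 at 2945 and 1545 CPM. Of all measured genes, 3.5% were higher and 4.13% lower in basal-like cells, and 3.55% and 5.16% in suprabasal-like cells. These shares were 3.57% and 4% in dermal papilla-like, 2.53% and 4.47% in outer root sheath-like and 2.55% and 4.08% in upper hair follicle-like cells. They were 2.74% and 5.07% in T and innate lymphoid-like, 10% and 8.44% in melanocyte-like and 5.4% and 6.33% in fibroblast-like cells. Over all kept cells Myc was higher, with a ratio of 1.63, and Egr3 lower, at 0.623, while Socs3 stood at 1.45 and Ier3 at 0.704. The list summed to 62220 and 56950 CPM in dermal papilla-like cells and to 20670 and 25400 CPM in basal-like cells. Its part in the chaperone differences was not tested, and genotype, library and handling cannot be told apart with 1 library each.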

How the data were processed

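The deposited files hold raw UMI counts per gene and cell for 2 libraries. Per the submitters' processing notes, Cell Ranger 3.0.2, Seurat 3.0 and build mm10 were used; the roles of these tools were not given in the sources used here. Cells with at least 500 UMIs, 300 genes and at most 20% mitochondrial UMIs were kept. Cells with a Scrublet doublet score of 0.25 or more were removed, a score set after the data were seen because the automatic thresholds marked 0.0197% of WT and 1.56% of Chrna5-/- cells; it removed 4.86% and 5.02%. Clustering used scanpy 1.11.5 and igraph 0.11.9 on 2000 variable genes, 30 components, 15 neighbours and Leiden resolution 1, without mitochondrial, ribosomal, haemoglobin, sex-linked and all listed chaperone and immediate early genes, and gave 30 clusters. A cluster was named by the marker list with the highest scaled level among those with at least 3 detected markers. Keratinocyte clusters were then placed in pools by the markers among their leading genes, and next by a standardised level. A cluster stayed unnamed if another class had more markers among its leading genes, or if it was shallow with no own marker there. Clusters 9, 10, 14, 16 and 24 stayed unnamed, the last led by Il17a with 81 WT and 15 Chrna5-/- cells. The naming was revised after cluster names and leading genes were seen, before member values were computed.

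The members and all gene lists were chosen with earlier results of these data known. Counts were summed per class and library. Ratios have exact conditional binomial, levels exact Poisson and shares exact Clopper-Pearson intervals, all for counting error only; a count of 0 was replaced by 3. Totals per library were 139673385 and 125458721 UMIs over 10741 and 9696 barcodes. Named were all members, the 2 highest and 2 lowest genes of each list over all kept cells, the 3 genes most like Hspa1a and Hspe1, and, after their values were seen, other list genes called in a class. The calls were also run on simulated counts that held counting error alone. That run cannot show how calls vary between mice or libraries. Alternatives were stricter cells, no doublet removal, a per-cell marker gate, median-of-ratios scaling, thinning and TMM (edgeR 4.0.16 in R 4.3.3, used for scaling factors only). Others were means over cells, clusters weighted alike or left out, 5% free RNA subtracted, shared barcodes left out and another denominator. For means over cells, clusters weighted alike and free RNA, the main interval was moved to the new ratio. Weighting alike used clusters with at least 20 cells in both libraries.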

Additional observations from a re-analysis of the deposited data

Results flagged for a closer look

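3 members were called in opposite directions in different classes; the difference between classes was not tested, because 1 library per genotype leaves no replicate. Hspa1a had a ratio of Chrna5-/- to WT CPM of 1.504 in upper hair follicle-like cells, 0.648 in dermal papilla-like cells and 0.5048 in fibroblast-like cells. Dnajb1 had 1.539 in all keratinocyte-like cells, 1.595 in basal-like and 1.61 in suprabasal-like cells, against 0.5377 in dermal papilla-like cells. Hspb1 had 1.858 in melanocyte-like cells, against 0.6252 in dermal papilla-like and 0.3941 in T and innate lymphoid-like cells.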

How the results depend on the processing

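No paired analysis was possible because the genotypes share only 1 replicate number, and no replicate could be left out. Over the alternatives, 749 of 999 member ratios kept their call if called, or stayed inside the main counting interval if uncalled. Another 232, all uncalled, moved outside that interval. A further 17 lost their call and 1 called ratio turned, Hspb1 in melanocyte-like cells (0.583 thinned to 1000 UMIs). Of 78 uncalled ratios 48 stayed on the same side of 1 throughout and 63 stayed uncalled. Dnajb1 in suprabasal-like and Dnajb1 and Hspb1 in dermal papilla-like cells kept their calls under every alternative except a ratio threshold of 2. The causes of the changes below were not tested. For the thresholds and settings below, the share of all measured genes called was not computed, so these counts of members have no background. With a lower ratio, 5 to 4, as threshold, members higher and lower came to 1 and 2 in all kept cells, and 2 were higher in basal-like, 2 in suprabasal-like, 2 in outer root sheath-like, 3 in upper hair follicle-like and 3 in T and innate lymphoid-like cells; 8 were lower in dermal papilla-like, 4 in fibroblast-like and 4 in melanocyte-like cells. With a ratio of 2, 0 were higher in keratinocyte-like, basal-like, suprabasal-like, upper hair follicle-like and melanocyte-like cells and 0 lower in dermal papilla-like and fibroblast-like cells. TMM and median of ratios each gave 1 higher in all kept and 1 in T and innate lymphoid-like cells. With clusters weighted alike, 0 were higher in keratinocyte-like and basal-like cells, and 2 lower in dermal papilla-like, 0 in fibroblast-like and 0 in T and innate lymphoid-like cells. Without unevenly split clusters, 2 were higher in outer root sheath-like and 1 in fibroblast-like cells. The per-cell marker gate gave 2 higher in outer root sheath-like and 0 in melanocyte-like, and 4 lower in fibroblast-like cells. Thinning and means over cells each gave 1 higher and 0 lower in T and innate lymphoid-like and 0 higher in melanocyte-like cells, with 2 lower there by means. No doublet removal gave 2 lower and 5% free RNA 1 higher in T and innate lymphoid-like cells, the strict filter 1 lower in melanocyte-like cells, and leaving mitochondrial and member UMIs out of the total 0 higher in upper hair follicle-like cells. Subtracting free RNA has no value for all kept cells. Depth limits Hspa1a and Hspb1 in lymphoid cells most, with 66 to 134 UMIs.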
